A study of Mus musculus with 6 samples.

Results

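The plasma cell program was described here through 10 genes taken by symbol from the 46333 genes in each library: Irf4, Prdm1, Xbp1, Sdc1, Tnfrsf13b, Tnfrsf17, Mzb1, Derl3, Fkbp11 and Creld2. All 10 were present in the files. Plasma cells are the antibody-secreting end stage of the B lineage, and long-lived ones settle in the bone marrow. Irf4 and Prdm1 (Blimp-1) shut down the B cell program, Xbp1 expands the endoplasmic reticulum (ER), and survival rests on signals through the BAFF and APRIL receptors.

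RNA was sequenced from mouse bone marrow cells, with no sort named in the labels, in 6 libraries. Of these, 3 came from mice stressed for 4 weeks by the CUMS procedure (chronic unpredicted mild stress, in which mild stressors alternate) to bring on a depression-like state, and 3 from negative control mice. The groups differ in no allele named in the labels. Strain, sex and age are not given in the sources used here, nor whether each library came from a separate animal, so each p-value reflects how far these libraries spread, which may be technical. Values are FPKM (fragments scaled to transcript length and to library size), so levels can be compared between genes. The libraries summed to 593129 to 653026 FPKM in CUMS and 561563 to 658595 in control, and haemoglobin genes took 31.7% to 35.2% of the CUMS sums and 28.8% to 29.2% of the control sums. A code in the file headers has the value 1 in both libraries numbered 1 and the value 2 in the remaining 4. No source says what it stands for, so it is called the header code here, and 3747 of the 12302 tested genes (30.5%) differed between its values in a fit with group as a term.

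The program genes spanned a wide range of levels, with Xbp1 at the top and Prdm1 and Tnfrsf17 at the bottom. Averaged over the 6 libraries, Xbp1 stood at 43.3 FPKM, Mzb1 at 22.5, Tnfrsf13b at 19.1, Creld2 at 16.5, Irf4 at 10.4, Sdc1 at 3.05, Fkbp11 at 2.65, Derl3 at 1.6, Prdm1 at 0.395 and Tnfrsf17 at 0.119 FPKM. Each gene lay above the next in all 6 libraries, except that Sdc1 lay above Fkbp11 in 3 of 6. Neighbours whose ranges over the 6 libraries overlapped were Mzb1 and Tnfrsf13b, Tnfrsf13b and Creld2, Sdc1 and Fkbp11, Fkbp11 and Derl3, and Prdm1 and Tnfrsf17. Prdm1 and Tnfrsf17 were under 1 FPKM in every library. Of the defining plasma cell markers, Sdc1 and the immunoglobulin genes were thus present, while Prdm1 and Tnfrsf17 were near 0. In bulk marrow, fewer cells of a type and less RNA per cell cannot be told apart.

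The comparison asked whether these genes differed between CUMS and control marrow. Most program genes were slightly lower in CUMS, and none of the differences passed the test. Of the 10 genes, 8 had at least 1 FPKM in at least 3 libraries and were tested with limma on log2(FPKM + 1), and 0 of the 8 had an adjusted p under 0.05, where 1.07% of all tested genes did. At an unadjusted p under 0.05 there was 1, Sdc1, where 15.4% of all tested genes were. Of the 8, 7 had log2 changes below 0, with a median of -0.19 beside -0.0017 for all tested genes. Leaving out 1 library moved that median between -0.27 and -0.14. In 6 of the 8 CUMS was lower for every replicate number, as it was for 26.2% of all tested genes, and in 1, Fkbp11, it was higher for every number (24.2% of all). The 3 CUMS libraries lay entirely below the 3 controls for 2 of the 8, Sdc1 and Tnfrsf13b (12.1% of all tested genes). With the header code as a term, Xbp1 and Mzb1 fell, 2 of 8, where 7.31% of all tested genes fell and 13.4% were called in either direction. The same 2 passed in the libraries of code 2 alone (17.7% of all called) and with the term after scaling to the same total (15.1%), but 0 of 8 passed with the term after scaling without haemoglobin (12.8%). Under the replicate block 0 of 8 were called, against 7.8% of all.

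**Figure D1:**
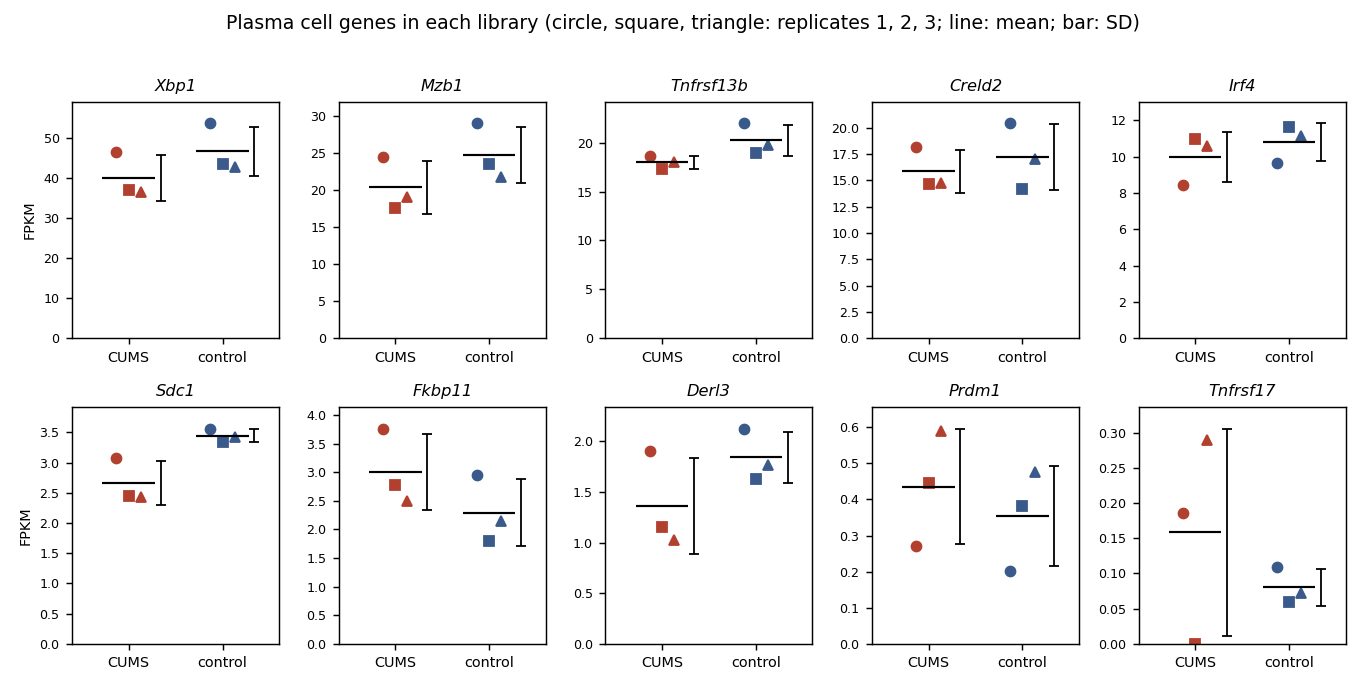
FPKM of the 10 plasma cell genes in each library, CUMS left of control, ordered by mean level, with each axis starting at 0. Circles, squares and triangles are replicates 1, 2 and 3, lines are group means and bars are SD; CUMS lay wholly below control for Sdc1 and Tnfrsf13b, and replicate 1 stood high for Xbp1 and Mzb1 and low for Irf4 in both groups.

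Among the transcription factors, Xbp1 (GRCm38 chromosome 11, 5520641 to 5525993), which drives the secretory expansion of plasma cells, was at 46.51, 36.85 and 36.45 FPKM in CUMS replicates 1 to 3 and at 53.6, 43.4 and 42.7 FPKM in control replicates 1 to 3. The groups overlapped, but CUMS was lower for each replicate number, at 0.868, 0.849 and 0.854 times control. The log2 change was -0.22 (SE 0.135, 95% interval -0.53 to 0.10, limma adjusted p = 0.50). With the header code as a term the SE was 0.0567 and Xbp1 passed (limma adjusted p = 0.0414), as in the 4 libraries of code 2 alone (log2 change -0.23, limma adjusted p = 0.0401). With the replicate block the limma adjusted p was 0.0862, and over all alternatives it ran from 0.0273 to 0.830. The pair of code 1 differed by -0.20. Gene-level FPKM does not part the spliced, active Xbp1 messenger from the unspliced one.

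Irf4 (chromosome 13, 30749233 to 30766981), needed to commit B cells to the plasma cell fate, was at 8.42, 10.99 and 10.58 FPKM in CUMS and 9.67, 11.7 and 11.1 FPKM in control. The groups overlapped, and the log2 change was -0.11 (SE 0.127, 95% interval -0.40 to 0.19, limma adjusted p = 0.753). It was below 0 in all 16 alternatives, but at -0.000656 without CUMS replicate 1, and it passed in 0 of them. By replicate number CUMS was at 0.87, 0.942 and 0.952 times control. Prdm1 (chromosome 10, 44437174 to 44528558), the repressor that installs the plasma cell state, was too low to be tested, at 0.272, 0.445 and 0.590 FPKM in CUMS and 0.203, 0.383 and 0.477 FPKM in control. CUMS was the higher library for each replicate number, with groups that overlapped in part. For both genes replicate 1 was the lowest library in each group.

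Of the receptors, Tnfrsf13b (TACI; chromosome 11, 61126283 to 61153170) binds BAFF and APRIL and is carried by mature B cells as well as plasma cells, while Tnfrsf17 (BCMA; chromosome 16, 11313232 to 11320074) is the APRIL receptor most restricted to plasma cells. Tnfrsf13b was at 18.65, 17.27 and 18.0 FPKM in CUMS and 21.99, 18.93 and 19.75 FPKM in control. The groups did not overlap, yet the log2 change was -0.16 (SE 0.0943, 95% interval -0.38 to 0.06, limma adjusted p = 0.478), and it was -0.23 in the pair of code 1 and -0.13 in code 2. Tnfrsf17 was at 0.186, 0 and 0.289 FPKM in CUMS and 0.110, 0.0588 and 0.0717 FPKM in control. It was listed at 0 in CUMS replicate 2 and highest in CUMS replicate 3, so that its SD in CUMS (0.147) was near its mean (0.158).

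Sdc1 (CD138; chromosome 12, 8771396 to 8793716), the surface proteoglycan used to sort plasma cells, was at 3.08, 2.46 and 2.44 FPKM in CUMS and 3.56, 3.34 and 3.43 FPKM in control. All CUMS libraries lay below all controls, at 0.864, 0.735 and 0.710 times control by replicate number. The log2 change was -0.29 (SE 0.115, 95% interval -0.55 to -0.02), with an unadjusted limma p of 0.0388 and an adjusted p of 0.297. It passed under no alternative run (limma adjusted p from 0.0608 to 0.667), and was -0.16 in the pair of code 1 and -0.35 in code 2.

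The ER members differed in direction, and none passed the test between groups alone. Mzb1, a chaperone of immunoglobulin assembly found in plasma cells, marginal zone B cells and plasmacytoid dendritic cells, was at 24.4, 17.54 and 19.01 FPKM in CUMS and 28.97, 23.45 and 21.68 FPKM in control. Groups overlapped, with CUMS at 0.842, 0.748 and 0.877 times control by replicate number. The log2 change was -0.27 (SE 0.154, 95% interval -0.63 to 0.08, limma adjusted p = 0.453), and with the header code as a term limma gave an adjusted p of 0.0362, within a range of 0.0282 to 0.795 over the alternatives. It was -0.24 in the pair of code 1 and -0.29 in code 2 (limma adjusted p = 0.042). The annotation of GRCm38 (chromosome 18, 35647265 to 35650266) has 695 bp of Mzb1 exons shared with Spata24 on the same strand, which was at 5.60 to 9.42 FPKM in CUMS and 5.51 to 6.03 FPKM in control, so reads there may have been counted for either gene.

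Derl3 (chromosome 10, 75893398 to 75895941), a derlin that moves misfolded proteins out of the ER for degradation, was at 1.899, 1.156 and 1.028 FPKM in CUMS and 2.12, 1.63 and 1.77 FPKM in control. Fkbp11 (chromosome 15, 98724368 to 98728198), a peptidyl-prolyl isomerase of secretory cells, was at 3.76, 2.77 and 2.49 FPKM in CUMS and 2.95, 1.79 and 2.14 FPKM in control. For each replicate number CUMS was lower for Derl3 and higher for Fkbp11, although both genes' groups overlapped. The log2 change was -0.28 for Derl3 (SE 0.165, 95% interval -0.66 to 0.10, limma adjusted p = 0.476) and 0.29 for Fkbp11 (SE 0.175, 95% interval -0.12 to 0.69, limma adjusted p = 0.495). With the header code as a term the limma adjusted p was 0.111 for Derl3 and 0.0819 for Fkbp11, and over all alternatives it ran from 0.094 to 0.830 and from 0.0723 to 0.775. The ratio of Fkbp11 to Derl3, chosen after the values were seen and not tested, was 1.98, 2.40 and 2.42 in CUMS and 1.39, 1.1 and 1.21 in control. That ratio did not overlap between the groups. Since Fkbp11 was higher and Derl3 lower in CUMS for each replicate number, the ratio had to be higher for each number.

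Creld2 (chromosome 15, 88819646 to 88826681), an ER stress-inducible protein with disulphide isomerase activity, was at 18.2, 14.7 and 14.7 FPKM in CUMS and 20.4, 14.2 and 17.0 FPKM in control. CUMS was lower for 2 of 3 replicate numbers and the groups overlapped (log2 change -0.10, SE 0.149, 95% interval -0.45 to 0.24, limma adjusted p = 0.804). Its sign turned without control replicate 1, to a log2 change of 0.02.

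The promoters of the 3 ER genes that carry a known stress motif are shown, since the unfolded protein response is known to drive ER genes of plasma cells through these letters. XBP1 and ATF6 are known to act through the ER stress element, spelled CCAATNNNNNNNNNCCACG, and XBP1 also through a core spelled TGACGTG. Both strands were searched. Windows run from 250 bases before the RefSeq start to 50 after it, on GRCm38.p6, 5′ to 3′ on the gene's strand, and capitals mark the motif. The windows are chr10:75893148-75893447 (+) for Derl3, chr15:88819396-88819695 (+) for Creld2 and chr15:98727578-98727877 (-) for the downstream of the 2 start sites of Fkbp11.
Derl3: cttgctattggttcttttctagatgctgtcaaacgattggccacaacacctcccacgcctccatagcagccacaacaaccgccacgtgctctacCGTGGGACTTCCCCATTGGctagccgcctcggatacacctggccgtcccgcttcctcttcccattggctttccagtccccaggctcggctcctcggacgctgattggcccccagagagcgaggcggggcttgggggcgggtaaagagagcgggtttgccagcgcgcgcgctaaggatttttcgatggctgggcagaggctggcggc
Creld2: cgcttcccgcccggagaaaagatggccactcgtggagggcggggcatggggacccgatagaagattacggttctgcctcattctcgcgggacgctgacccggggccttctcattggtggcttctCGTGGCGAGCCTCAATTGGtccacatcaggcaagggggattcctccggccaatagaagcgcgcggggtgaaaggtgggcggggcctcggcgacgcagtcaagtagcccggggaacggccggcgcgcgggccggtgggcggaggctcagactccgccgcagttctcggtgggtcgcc
Fkbp11: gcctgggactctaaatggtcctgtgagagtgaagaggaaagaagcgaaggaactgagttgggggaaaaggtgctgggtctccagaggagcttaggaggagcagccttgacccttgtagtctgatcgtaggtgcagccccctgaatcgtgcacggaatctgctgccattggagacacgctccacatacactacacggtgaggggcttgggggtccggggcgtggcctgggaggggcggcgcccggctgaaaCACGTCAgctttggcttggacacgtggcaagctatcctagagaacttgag
The ER stress element was found in Derl3 and Creld2, starting 156 and 126 bases before the start, and in 39 of all 32851 windows (0.119%). The core was found in Fkbp11 at the downstream start itself, and in 2.01% of all windows. The window of the upstream start of Fkbp11 held neither the core nor the element. The second form of the element, ATTGGNCCACG, was in no member window and in 0.0365% of all. Windows were at hand for 9 members, not for Mzb1, and those of Irf4, Prdm1, Sdc1, Tnfrsf13b, Tnfrsf17 and Xbp1 held none of these 3 motifs. The short box CCAAT, which is part of the element, was in 5 member windows and in 37.4% of all, and the box CACGTG in those of Derl3 and Fkbp11 and in 7.15% of all. Among the 40 genes of the wider ER list with a window, 6 held the element, of which Hspa5, Hsp90b1, Pdia6 and Dnajc3 had log2 changes above 0 (0.24, 0.12, 0.08 and 0.08) and Ero1b and Syvn1 below (-0.08 and -0.22), none of them past the test. The core was in Hspa5, Sec24d and Txndc11, the last pair at -0.02 and -0.10. Genes with either motif thus lay on both sides of 0. A match is a description of these letters, not a site.

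Beside the program, the antibody genes that plasma cells transcribe at high level were examined. The IgG constant genes together were higher in every CUMS library than in every control: their sum was 121, 84.5 and 93.2 FPKM in CUMS and 61.2, 49.1 and 41.5 FPKM in control for Ighg1, Ighg2b, Ighg2c and Ighg3. Of 12 tested genes of the immunoglobulin constant and J chain list 3 rose and 0 fell, with a median log2 change of 0.22. Of all tested genes 0.618% rose and 0.455% fell. Of the 12, 8 had log2 changes above 0 and 4 below. Those below were Ighm and the lambda light-chain genes Iglc1, Iglc2 and Iglc3 (log2 changes -0.44, -0.19 and -0.21 for the lambda genes). Iglc1 lay wholly lower in CUMS, as did 12.1% of all tested genes (limma adjusted p = 0.251). Ighg1 was at 31.4, 20.5 and 24.4 FPKM in CUMS and 11.3, 11.4 and 9.77 FPKM in control. Ighg2c was at 36.4, 27.9 and 27.1 FPKM in CUMS and 16.7, 9.79 and 10.6 FPKM in control. Both rose, with every CUMS library above every control, as for 10% of all tested genes (log2 change 1.14, SE 0.155, limma adjusted p = 0.0196 for Ighg1; 1.26, SE 0.203, limma adjusted p = 0.0343 for Ighg2c). The third that rose, Ighg3, was at 10.84, 6.349 and 7.153 FPKM in CUMS and 2.551, 2.239 and 2.558 FPKM in control, 3.31-fold higher on average (log2 change 1.37, SE 0.18, limma adjusted p = 0.0179). With no filter on low values 0 genes of the list passed. Jchain, which joins the chains of secreted IgM and IgA, was at 33.2, 28.47 and 32.4 FPKM in CUMS and 27.42, 20.96 and 18.89 FPKM in control. Its groups did not overlap (log2 change 0.48, SE 0.144, limma adjusted p = 0.177), and it passed with the replicate block (limma adjusted p = 0.0383; 0.0063 to 0.506 over the alternatives). With the block 4 genes of the list rose and 1, Iglc1, fell, where 3.49% of all tested genes rose and 4.31% fell. Ighm was at 605.8, 490.7 and 528.5 FPKM in CUMS and 674.5, 603.2 and 588.8 FPKM in control (log2 change -0.20, limma adjusted p = 0.481), and Igha at 169, 109 and 125 FPKM in CUMS and 155, 100 and 113 FPKM in control (0.13, limma adjusted p = 0.825). The number called was 2 without CUMS replicate 1, 1 without CUMS replicate 2, 4 without control replicate 1, and 0 without CUMS replicate 3, control replicate 2 or control replicate 3. The constant genes are close paralogs, so reads may be split between them.

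**Figure D2:**
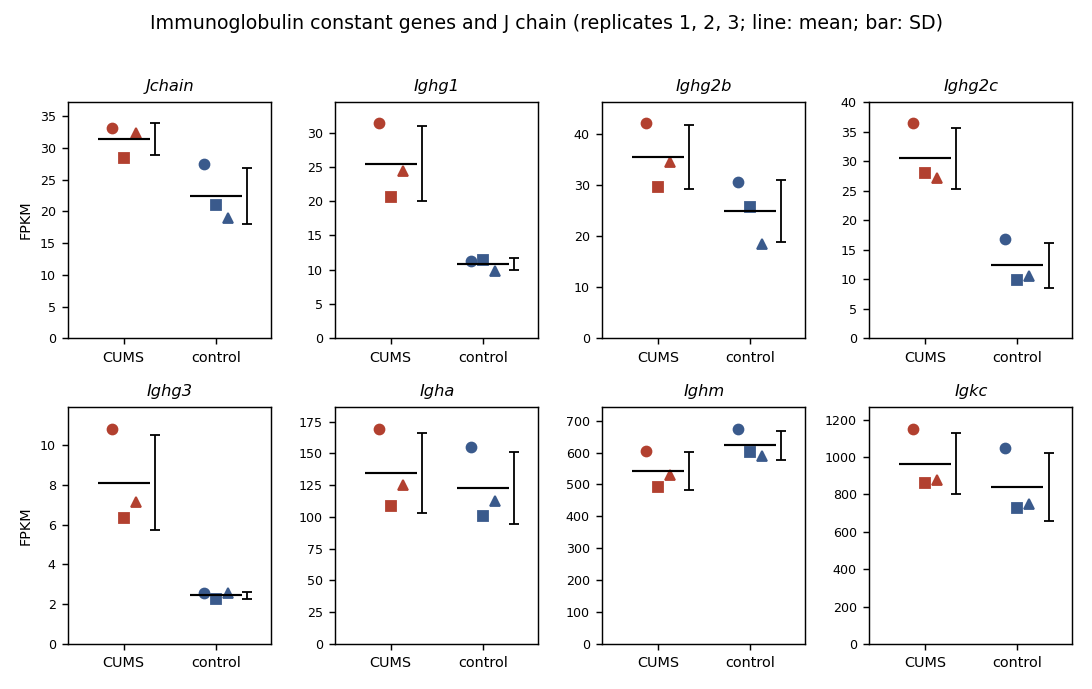
FPKM of J chain and 7 immunoglobulin constant genes in each library, CUMS left of control, with axes starting at 0; symbols are replicates 1 to 3, lines are means and bars are SD. Jchain, Ighg1, Ighg2c and Ighg3 lay wholly higher in CUMS, while Igha, Ighm, Igkc and Ighg2b overlapped.

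Ratios to B cell and plasma cell markers were chosen after the values were seen and were not tested. Mzb1 over Cd79a, the signalling chain of the B cell receptor, was 0.123, 0.0925 and 0.107 in CUMS and 0.114, 0.103 and 0.0963 in control. Sdc1 over Cd79a was 0.0155, 0.013 and 0.0137 in CUMS and 0.014, 0.0147 and 0.0153 in control, and both ratios overlapped between groups. The IgG sum over Sdc1 was 39.3, 34.4 and 38.2 in CUMS and 17.2, 14.7 and 12.1 in control. That ratio could not overlap, since the IgG sum was wholly higher and Sdc1 wholly lower in CUMS. Tnfrsf13b over Cd79a was 0.0937, 0.0911 and 0.101 in CUMS and 0.0864, 0.0831 and 0.0878 in control, wholly higher in CUMS. Both of these genes lay wholly lower in CUMS, Cd79a (log2 change -0.32) by more than Tnfrsf13b (-0.16). Xbp1 over Cd79a was 0.234, 0.194 and 0.205 in CUMS and 0.211, 0.191 and 0.19 in control, with overlap. Irf4 over Cd79a was 0.0423, 0.058 and 0.0594 in CUMS and 0.038, 0.0512 and 0.0494 in control, also with overlap. The IgG sum over Ighm was 0.199, 0.172 and 0.176 in CUMS and 0.0908, 0.0814 and 0.0705 in control.

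**Figure D3:**
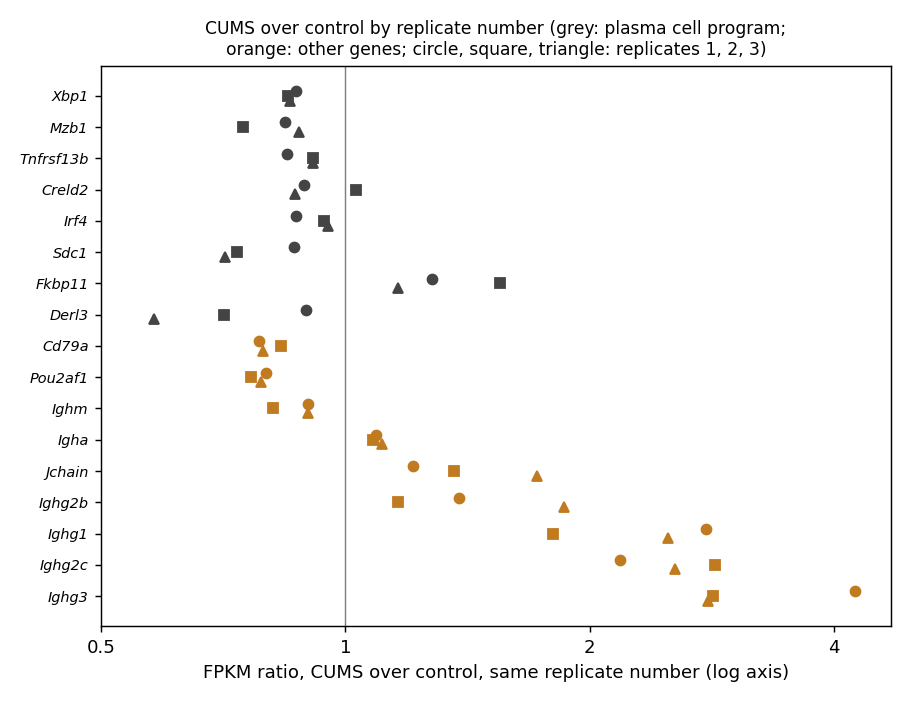
FPKM in CUMS over control for the same replicate number, on a log axis, for the 8 tested plasma cell genes and 9 other genes (circle, square and triangle are replicates 1, 2 and 3). Fkbp11 was the program gene above 1 at all 3 numbers, the other program genes lay with Cd79a and Pou2af1 below or around 1, and Ighg1, Ighg2c and Ighg3 lay at 1.80 or more.

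Markers of other cells that express program members were lower in CUMS for B cells and their precursors, by summed level, and the part of these cells in the results was not tested. Of 15 B cell identity genes, many of which plasma cells lose, 0 passed with limma. An unadjusted limma p under 0.05 was found for 4, as for 15.4% of all tested genes. Of the 15, 10 had log2 changes below 0 and the median was -0.18. That direction turned when some single libraries were left out. The median was 0.02 without CUMS replicate 1 and 0.03 without control replicate 2, with 7 of 15 below 0 each time, and -0.03 without control replicate 3. In the 4 libraries of code 2 alone it was -0.19, with 10 of 15 below 0. With the replicate block 5 of the 15 fell, as did 4.31% of all tested genes. Cd79a was at 199, 189 and 178 FPKM in CUMS and 255, 228 and 225 FPKM in control (log2 change -0.32, limma adjusted p = 0.184, with the block 0.036). Spib, a transcription factor of B cells and plasmacytoid dendritic cells, had a log2 change of -0.48 (limma adjusted p = 0.0786, with the block 0.0168). The summed level of the list ran from 526 to 561 FPKM in CUMS and from 630 to 675 FPKM in control. All 6 pro-B and pre-B genes were below 0, with a median of -0.39 and sums of 114 to 134 FPKM in CUMS and 145 to 180 FPKM in control. Rag2, a subunit of the recombinase that assembles antigen receptor genes, had a log2 change of -0.53 (limma adjusted p = 0.0725, with the block 0.0246). With limma 0 of the 6 passed, and 4 had an unadjusted p under 0.05 (15.4% of all tested genes). With the block 4 fell (4.31% of all).

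Plasmacytoid dendritic cells also carry Mzb1 and Irf4. Their defining receptor Siglech was at 18.0, 19.0 and 18.1 FPKM in CUMS and 18.6, 18.5 and 19.2 FPKM in control (log2 change -0.03, limma adjusted p = 0.911). Of 8 markers 0 passed, and 2 had an unadjusted limma p under 0.05, as did 15.4% of all tested genes. Of the 8, 6 lay below 0, among them Bst2, which interferon also induces, and Cox6a2 (log2 changes -0.55 and -0.57, limma adjusted p = 0.0514 and 0.0933, with the block 0.0168 and 0.0327). Their summed level was 181 to 198 FPKM in CUMS and 221 to 263 FPKM in control. Most of that sum came from Ly6d and Bst2, so it says little of the other markers. Ly6d was at 97.46 to 116.0 FPKM in CUMS and 112.5 to 146.7 FPKM in control, with overlap. Bst2 was at 44.8 to 48.66 FPKM in CUMS and 63.8 to 74.74 FPKM in control. T cell markers, whose cells can express Prdm1 and Irf4, had a median of 0.09, summed to 30.8 to 34.6 FPKM in CUMS and 26.8 to 33.7 FPKM in control, and gave 0 calls among 7 (1 at an unadjusted p under 0.05). No marker of these 4 lists was at 0 in all libraries.

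Other plasma cell genes were split. Of 19 genes 16 were tested and 0 passed, and 3 had an unadjusted limma p under 0.05, as did 15.4% of all tested genes. Of the 16, 7 lay above 0 and 9 below, and the median was -0.05 (0.02 without control replicate 2 and 0.01 without CUMS replicate 1). Pou2af1, the coactivator of octamer factors in B and plasma cells, was at 37.3, 35.5 and 34.05 FPKM in CUMS and 46.78, 46.45 and 43.32 FPKM in control, without overlap (log2 change -0.35, SE 0.0862, limma adjusted p = 0.117, with the block 0.0285). Slamf7, a surface receptor of plasma cells that other leukocytes share, was at 3.84, 4.83 and 4.71 FPKM in CUMS and 6.36, 7.93 and 6.21 FPKM in control (log2 change -0.52, SE 0.130, limma adjusted p = 0.119, with the block 0.0247). Both lay wholly lower in CUMS. Ell2, the elongation factor that favours the secreted form of immunoglobulin messengers, was at 11.9, 13.5 and 13.7 FPKM in CUMS and 11.5, 10.7 and 10.2 FPKM in control, wholly higher (log2 change 0.25, limma adjusted p = 0.301). Cxcr4, the receptor for Cxcl12, was wholly higher in CUMS (log2 change 0.24, limma adjusted p = 0.34). With the header code as a term it passed (limma adjusted p = 0.0372; 0.0282 to 0.693 over the alternatives).

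The wider ER machinery had more genes above 0 than below. Of 46 tested genes for folding, translocation and export 1 rose and 0 fell, where 0.618% of all tested genes rose. Of the 46, 30 lay above 0 and 16 below, and the median was 0.08. After scaling to the same total it was 0.04, with 26 above. Without CUMS replicate 1 it was 0.01, with 25 above and 21 below, and without control replicate 2 it was 0.02, with 26 above, and without control replicate 3 it was 0.03, with 27 above. The gene that rose was Dnajb9, an ER co-chaperone and known XBP1 target, at 15.9, 15.4 and 15.2 FPKM in CUMS and 10.1, 8.55 and 10.6 FPKM in control. Every CUMS library was above every control (log2 change 0.62, SE 0.104, limma adjusted p = 0.0385). The call was lost without any 1 library other than control replicate 1 (limma adjusted p = 0.0926 without CUMS replicate 1, 0.188 and 0.191 without CUMS replicates 2 and 3, 0.128 and 0.127 without control replicates 2 and 3). Ssr1 and Sec61g, parts of the translocation machinery, were wholly higher in CUMS, with log2 changes of 0.26 and 0.43 (limma adjusted p = 0.218 and 0.226), 2 of the 5 in 46 that lay so, beside 10% of all tested genes. With the header code as a term both passed (limma adjusted p = 0.0448 for Ssr1 and 0.0421 for Sec61g; 0.0286 to 0.571 and 0.00439 to 0.576 over the alternatives). Hspa5, the main ER chaperone BiP, was at 152, 153 and 148 FPKM in CUMS and 149, 115 and 121 FPKM in control (log2 change 0.24, limma adjusted p = 0.378, in code 2 alone 0.00997). Of the 7 sensors and factors of the unfolded protein response 0 passed (0 at an unadjusted p under 0.05), with 3 above 0 and 4 below. Atf4, the transcription factor of the PERK branch, was at 146, 120 and 125 FPKM in CUMS and 128, 98.55 and 104 FPKM in control, higher for each replicate number with overlapping groups (log2 change 0.25, SE 0.130, limma adjusted p = 0.423, with the header code as a term 0.0324). Atf6b, a relative of the sensor ATF6, and Ddit3 (CHOP), a stress-induced factor, had log2 changes of -0.23 and -0.17 (limma adjusted p = 0.384 and 0.681). Ern1, the enzyme IRE1 that splices Xbp1, was at 3.23, 6.29 and 6.01 FPKM in CUMS and 4.62, 10.6 and 9.31 FPKM in control, with overlapping groups and lower values for each replicate number (log2 change -0.55, SE 0.309, limma adjusted p = 0.456, with the block 0.0182 and with the header code as a term 0.00824).

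**Figure D4:**
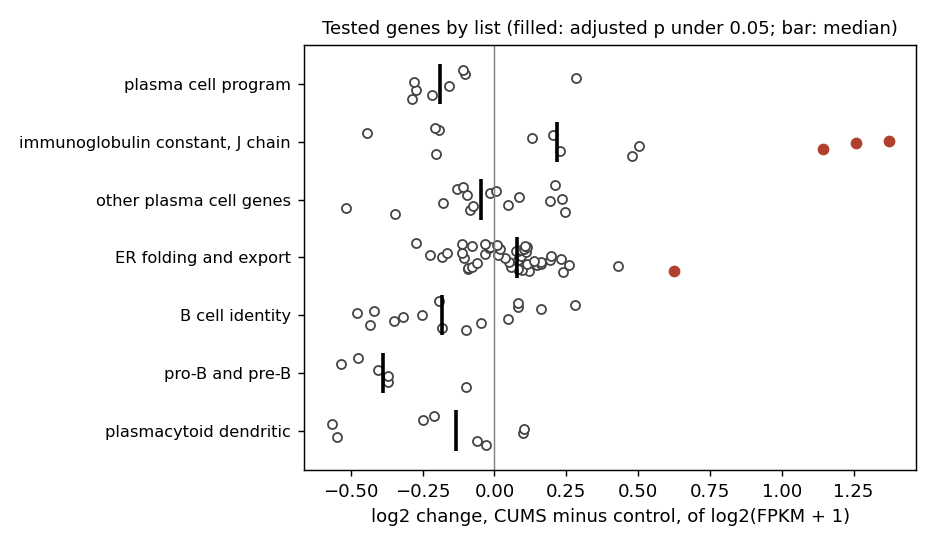
Log2 change of log2(FPKM + 1), CUMS minus control, of each tested gene in 7 lists; filled points had an adjusted p under 0.05 and bars are list medians. No plasma cell program gene is filled, 3 immunoglobulin genes and 1 ER gene are, and the program's median is -0.19.

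Ligands and niche factors of plasma cell survival gave 0 calls among 8 tested genes (1 at an unadjusted p under 0.05, beside 15.4% of all tested genes). Tnfsf13 (APRIL) was at 4.876, 4.201 and 5.749 FPKM in CUMS and 5.39, 4.93 and 5.46 FPKM in control, with overlapping groups. Tnfsf13b (BAFF) was at 11.2, 7.70 and 8.29 FPKM in CUMS and 12.5, 9.94 and 12.7 FPKM in control, lower for each replicate number (log2 change -0.35, SE 0.156, limma adjusted p = 0.347). Tnfrsf13c, the BAFF receptor of B cells, was at 15.8 to 17.2 FPKM in CUMS and 17.3 to 18.2 FPKM in control (log2 change -0.11, limma adjusted p = 0.614). Cxcl12, the stromal chemokine that retains plasma cells, was at 56.9, 54.7 and 52.8 FPKM in CUMS and 47.2, 42.1 and 39.9 FPKM in control (log2 change 0.34, SE 0.0957, limma adjusted p = 0.151, with the block 0.032). Il6, a plasma cell survival cytokine named here after its values were seen, was under the filter at 1.165, 0.796 and 0.899 FPKM in CUMS and 0.259, 0.315 and 0.518 FPKM in control, without overlap.

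Several members also differed by the header code. In a fit with group as a term, 6 of the 8 tested members differed between code 2 and code 1, against 30.5% of all tested genes. Code 2 was lower for Fkbp11, Mzb1, Derl3, Creld2 and Xbp1 (log2 differences -0.40, -0.37, -0.34, -0.33 and -0.32, limma adjusted p = 0.0195, 0.00795, 0.0492, 0.0228 and 0.00685) and higher for Irf4 (0.27, limma adjusted p = 0.0294). Sdc1 and Tnfrsf13b did not pass (limma adjusted p = 0.254 and 0.195). As each group has 1 library of code 1 and 2 of code 2, the group means carry the code in equal parts.

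Outside the members, the 5 tested genes whose values over the 6 libraries were most like the mean standardised value of the 8 members were Timm22, a mitochondrial import subunit (Pearson r = 0.999), Prkar1a, a regulatory subunit of protein kinase A (0.998), Lgals9, a galectin (0.997), H2az2, a histone variant (0.996), and Eif4ebp1, a translation inhibitor (0.9955). They were picked as the top of 12070 genes over 6 points that share the header code and the group, so the values are a description. The 8 members did not all vary together. Of their 28 pairs 8 had a negative Pearson r, with a median of 0.696 and a lowest of -0.923, for Fkbp11 and Irf4. Irf4 had a negative r with every other tested member. Like most members the 5 genes were high in replicate 1 of each group and lower in CUMS for each replicate number. Timm22, for one, was at 5.26, 4.41 and 4.42 FPKM in CUMS and 6.12, 5.01 and 5.27 FPKM in control (log2 change -0.18, limma adjusted p = 0.517).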

How the data were processed

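Bone marrow RNA of 6 mouse libraries was extracted with TRIzol, prepared with a TruSeq kit and read as paired 151 bp reads, per the labels' protocols. Per the submitters' processing notes the build was mm10, and HISAT2 2.1, featureCounts 1.6.4, DESeq2 2.11.40.6, cutadapt 1.16.5 and bcl2fastq 2.19 were used; which of them made the values, and whether strand was counted, is not given in the sources used here. The deposited values are FPKM, a unit read from the values, since no header names it, and no scaling between samples is recorded. The depth in counts is unknown: values times transcript length lay within 0.05 of a whole multiple for 11.7% to 13.2% of low values at the best-fitting unit, beside 10% for evenly spread values, so reads could not be recovered and no counting intervals are given.

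The 12302 genes that reached 1 FPKM in 3 or more libraries were fitted with limma-trend 3.58.1 in R 4.3.3 on log2(FPKM + 1), with group as the term and Benjamini-Hochberg adjustment over all of them. A fold change on this scale understates the change of low genes, and an exact permutation test of 3 against 3 libraries cannot go below 0.1. The test was checked on simulated data. Intervals are 95% intervals of limma. Python 3.11.15 with pandas 2.3.3 and matplotlib 3.10.9 made the tables and plots. Promoters and coordinates came from RefSeq, GRCm38.p6, and exon overlaps from GENCODE M21.

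Titles number the replicates 1 to 3 in both groups. Across genes, the deviations of same-numbered libraries from their group means had correlations of 0.689, 0.452 and 0.363, so the numbers were taken to pair the libraries, but replicates 2 and 3 correlated as much when crossed (0.459 and 0.362), and number 1 coincides with header code 1. The replicate block was an alternative, as were the header code as a term, the libraries of code 2 alone, other pseudocounts, filters and scalings, and leaving out each library. Named genes were all members, up to 4 genes with the smallest p per list, and the 5 most alike in pattern; 1 gene that the rule names is not reported here. Of these lists, 13 in all, the stromal, erythroid and myeloid ones served as checks: their median log2 changes were 0.58 (3 of 5 tested), 0.19 and -0.06, with 1 rise (Col1a2), 0 calls and 1 fall (Csf1r). The members and lists were chosen with earlier results of these data known.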

Additional observations from a re-analysis of the deposited data

How the results depend on the processing

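In all, 16 alternatives were run, of which 2, joining the header code term to a scaling, were chosen after seeing the data. The number of genes called was 132, and it was 36 with no filter, 199 with quantile normalization, 959 with the replicate block, 1645 with the header code as a term, 2173 in header code 2 alone, and 17 to 262 when 1 library was left out. Joining the header code term to scaling to the same total gave 1858, and to scaling without haemoglobin 1576. Members called were 0, but 2 with the header code term, 2 in code 2 alone and 2 with the term and the same total. They were 0 with the term and scaling without haemoglobin, with the block and without any 1 library, where 0.138% to 2.13% of all tested genes were called. In the order no filter, block, term, code 2 alone, term with the same total and term without haemoglobin, the immunoglobulin list gave 0, 5, 6, 8, 8 and 7 calls against 3. Leaving out 1 library gave 0 to 4. The other plasma cell list gave 2 with the block, 3 with the term, 5 in code 2 alone, and 2 and 3 in the joined fits, against 0. ER genes called were 0 with no filter, 4 with the term, 10 in code 2 alone, 2 and 6 in the joined fits, and 0 to 1 without 1 library, against 1. B cell genes called were 1 with the same total, 1 with quantile normalization, 5 with the block, 6 with the term, 6 in code 2 alone, 6 and 5 in the joined fits, and 0 to 1 without 1 library, against 0. Of the genes named in the text from the lists, the block changed the calls given beside them and no other. The block was not read out for the 5 genes most alike in pattern. The cause of these shifts was not tested. Over the 16 alternatives the log2 change ran from -0.37 to -0.24 for Sdc1, -0.33 to -0.12 for Xbp1, -0.41 to -0.16 for Mzb1, -0.20 to -0.10 for Tnfrsf13b, -0.45 to -0.18 for Derl3, 0.16 to 0.42 for Fkbp11, -0.23 to 0.02 for Creld2 and -0.18 to -0.000656 for Irf4. Prdm1 and Tnfrsf17 entered the test with no filter alone and had limma adjusted p = 0.851 and 0.797 there. The low level of these 2 genes limits what can be read from them.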
